A study of Mus musculus with 4 samples.

Results

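The Notch pathway was followed in tumour-derived mammary cancer cells of the mouse through 10 genes: the receptors Notch1, Notch2, Notch3 and Notch4, the ligands Jag1, Jag2 and Dll1, and the targets Hes1, Hey1 and Nrarp. They were taken as all non-control probes carrying these names on a mouse expression array, which gave 12 probes for the 10 genes, out of 39429 probes under 31829 names. Where a gene had more than 1 probe, the brightest stood for it. Every cell sample came from tumours of MMTV-Neu mice, so the controls carried the oncogene too. Its promoter, that of the mouse mammary tumour virus, drives Neu (Her2, gene Erbb2) mainly in mammary epithelium. There were 2 samples labelled Pak1-/-, from mice without the p21-activated kinase Pak1, and 2 labelled Pak1+/+. All were grown in low calcium medium with horse serum, deprived of serum for 3 h and given EGF for 15 min before harvest. Per the series design, the 2 samples of a group came from different tumours, and the study's methods call the cells lines; strain and age were not given in the sources used here.

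Notch receptors are single-pass membrane proteins that signal on contact with a Jagged or Delta-like ligand on a neighbouring cell. Ligand binding lets an ADAM protease and then γ-secretase release the intracellular domain, which joins the DNA-binding protein RBPJ and a Mastermind coactivator in the nucleus and turns on Hes and Hey repressors and the feedback inhibitor Nrarp. In the mammary gland the pathway is known for a part in the choice between luminal and basal cells, and activated Notch1 and Notch4 are known mouse mammary oncogenes.

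All 4 arrays shared 1 slide, with the Pak1-/- samples at positions 1 and 2 and the Pak1+/+ samples at positions 3 and 4, so position and genotype cannot be told apart. The median spot intensity was 322 to 331 over a local background of 39.0 to 42.0, and 62.2% to 70.4% of probes were well above background. Arrays of a group were close (lowest r 0.997 across probes, against 0.954 to 0.959 between groups; genes are not independent replicates). The single Pak1 probe did not read lower in the Pak1-/- arrays (12.23 ± 0.03 against 12.04 ± 0.002, SD, n = 2 each; limma adjusted p = 0.070), and every direction below rests on the labels.

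The Notch genes that differed between the groups did not move 1 way. Notch1, Notch2 and the ligand Jag1 were higher in the Pak1-/- arrays, while Notch3, Notch4, Jag2, Hey1 and Nrarp were lower, and Dll1 and Hes1 did not pass the test (limma on all 27229 probes kept, Benjamini-Hochberg adjusted p under 0.05). That is 3 higher and 5 lower of 10. Both counts fell when samples were left out: without Pak1+/+ replicate 2 they were 1 and 2, and 3 were lower without Pak1-/- replicate 1 or Pak1+/+ replicate 1. At an adjusted p under 0.01 they were 1 and 1. Among all 22014 genes tested, each by its brightest probe, 51.0% passed, 22.8% higher and 28.2% lower (51.9% of all probes, 23.3% higher and 28.6% lower). Of the probes that passed, 44.9% were higher, and 52.4% were with cyclic loess in place of quantile normalization, so which direction was more frequent turned with the scaling. The 2 groups of arrays did not overlap for 9 of the 10 genes, against 77.6% of all genes. By the brightest probe only Nrarp changed at least 2-fold, against 12.6% of all genes. The median log2 difference of the 10 genes was −0.20, beside −0.055 for all genes, and the median size of the difference was 0.58 log2 beside 0.32. All 12 probes were well above background on all 4 arrays, with no saturated or outlier spot. Levels below are normalized log2 intensities, and differences are log2 values, Pak1-/- minus Pak1+/+. Probes differ in how brightly they bind, so levels of different Notch probes are not compared, and a sum over a marker list is weighted by its brightest probes. In RNA from whole cultures, fewer cells of a type and less RNA per cell cannot be told apart.

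**Figure D1:**
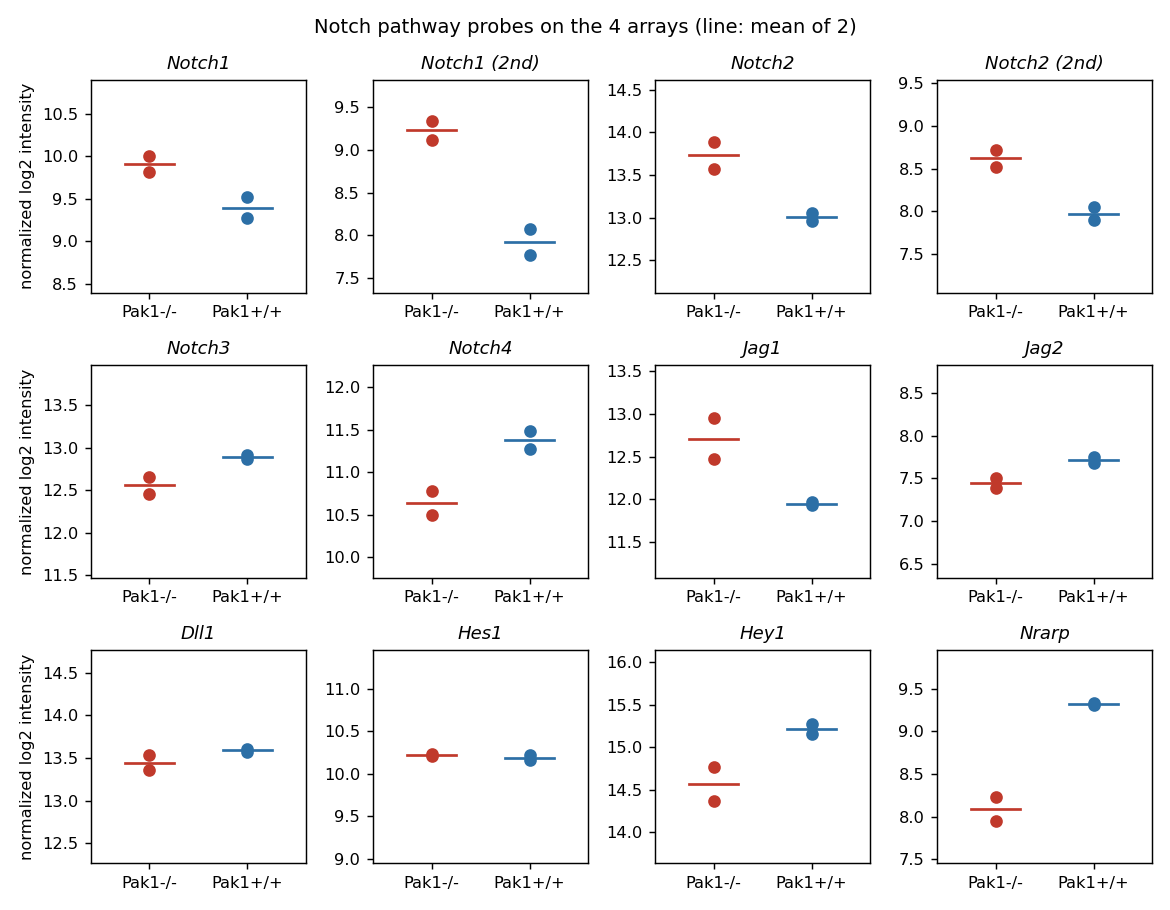
Normalized log2 intensity of each of the 12 probes on the 2 Pak1-/- arrays (red) and the 2 Pak1+/+ arrays (blue), with a line at each group mean. Each panel spans 2.5 log2 units, and "2nd" marks the dimmer probe of a gene. The groups lie apart in every panel but that of Hes1, and farthest apart for the second Notch1 probe and Nrarp.

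The 4 receptors split into 2 pairs. Notch1, a receptor of luminal progenitors and a frequent oncogene, had 2 probes 4750 bases apart in the mouse genome (mm9, chromosome 2, minus strand). The brighter, A_55_P2171897 (26319440 to 26319499), reads coding sequence of the intracellular domain. It read 9.81 and 9.996 in the Pak1-/- arrays and 9.51 and 9.27 in the Pak1+/+ arrays. Both Pak1-/- values were above both others, a difference of 0.51 (SE 0.12, 95% interval 0.19 to 0.83, adjusted p = 0.023). The call was lost when Pak1-/- replicate 1 or 2 or Pak1+/+ replicate 2 was left out (adjusted p = 0.052, 0.0998 and 0.084, in a range of 0.0054 to 0.0998 over all alternatives). The second probe, A_55_P2047168 (26314630 to 26314689), lies further downstream on the gene's strand. It read 9.12 and 9.34 against 8.07 and 7.76, a larger difference of 1.31 (SE 0.14, 95% interval 0.94 to 1.69, adjusted p = 0.0022). Its groups lay more than a log2 unit apart and the call held under every alternative run. The probes gave the same direction, and the intervals of their differences did not overlap. The difference between the probes was not tested.

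Notch2, the closest relative of Notch1, was also read by 2 probes, 2621 bases apart on chromosome 3. The brighter, A_52_P289213 (97953914 to 97953973), read 13.89 and 13.57 in the Pak1-/- arrays and 12.96 and 13.06 in the Pak1+/+ arrays. The groups did not overlap, and the difference was 0.72 (SE 0.13, adjusted p = 0.0097), which is 1.65-fold. The dimmer, A_55_P1982793 (97951233 to 97951292), reads coding sequence near the carboxyl end. It read 8.72 and 8.52 against 7.89 and 8.04, a difference of 0.65 (SE 0.11, adjusted p = 0.0076). The 2 Notch2 probes thus gave nearly the same difference, and both calls held under every alternative.

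The brighter Notch1 probe and the dimmer Notch2 probe are shown as the array carried them, 5′ to 3′ and 60 bases long, since both read the signalling end of a receptor that was higher. Both have a GC content of 55%.
Notch1: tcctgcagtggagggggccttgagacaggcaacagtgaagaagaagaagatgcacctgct
Notch2: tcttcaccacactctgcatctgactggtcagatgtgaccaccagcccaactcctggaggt

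Notch3 and Notch4 went the other way. Notch3, a receptor best known in vascular smooth muscle and also found in luminal mammary cells, was read by A_51_P220162 (chromosome 17, 32257848 to 32257907). It stood at 12.46 and 12.66 in the Pak1-/- arrays and 12.91 and 12.86 in the Pak1+/+ arrays. The groups did not overlap, but the gap was small: −0.33 (SE 0.09, 95% interval −0.58 to −0.080, adjusted p = 0.041). Of the 4 samples, 3 removed the call when left out: Pak1-/- replicate 1 (adjusted p = 0.10) and Pak1+/+ replicates 1 and 2 (0.15 and 0.11), in a range of 0.029 to 0.15 over all alternatives. It also missed the threshold with no offset (0.054), with Agilent's processed signal (0.071), with cyclic loess (0.077) and with no filter on dim probes (0.070).

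Notch4, mainly an endothelial receptor and the site of the Int3 insertions of mammary tumour virus, was read by A_51_P195875 (chromosome 17, 34725120 to 34725179). It stood at 10.78 and 10.50 in the Pak1-/- arrays and 11.27 and 11.49 in the Pak1+/+ arrays. Both Pak1-/- values were below both others, with a difference of −0.74 (SE 0.13, adjusted p = 0.010), 1.67-fold. It kept this call at the 0.05 threshold under every alternative. Of the 8 endothelial markers, 5 were above background on at least 2 arrays, and Tek, Tie1 and Emcn were dim on all 4. Egfl7 was lower, as Notch4 was (−0.63, adjusted p = 0.0065), 4 did not pass and none was higher by its brightest probe; a dimmer Kdr probe was higher (1.37, adjusted p = 4.6e-04). The list summed to 11320 and 11069 intensity units in the Pak1-/- arrays and 10505 and 12303 in the Pak1+/+ arrays, but Kdr alone made up 77.2% to 83.6% of that. Without Kdr the sums were 1853 and 2091 against 2392 and 2431, and without Egfl7 as well they overlapped (1107 and 1226 against 1168 and 1176), so Egfl7 alone carried that gap. The part of endothelial cells in the Notch4 difference was not tested.

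Of the ligands, Jag1 was higher and Jag2 lower in the Pak1-/- arrays. Jag1, a ligand often raised in basal-like breast cancer, was read by A_52_P634090 (chromosome 2, 136907433 to 136907492) at 12.95 and 12.47 against 11.96 and 11.93. The Pak1+/+ arrays were nearly alike, and Pak1-/- replicate 1 was the highest. The difference was 0.76 (SE 0.17, 95% interval 0.31 to 1.21, adjusted p = 0.020), and it was 1.00 without Pak1-/- replicate 2 and 0.52 without Pak1-/- replicate 1. Without Pak1+/+ replicate 1 or 2 it did not pass (adjusted p = 0.055 and 0.061, in a range of 0.0077 to 0.061 over all alternatives).

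Jag2, the related Jagged ligand, was read by A_51_P451338 (chromosome 12, 114146887 to 114146946) at 7.39 and 7.51 against 7.75 and 7.68. The groups did not overlap, yet the difference of −0.27 (SE 0.08, 95% interval −0.48 to −0.052) barely passed (adjusted p = 0.048). The call was lost without any 1 of the 4 samples, with adjusted p of 0.057 to 0.20 (the range over all alternatives was 0.033 to 0.20), as well as with cyclic loess (0.062) and with no filter on dim probes (0.081). Dll1, a Delta-like ligand of mammary stem cells, was read by A_51_P306017 (chromosome 17, 15504623 to 15504682), the only member probe printed on 10 spots. It stood at 13.53 and 13.36 against 13.61 and 13.57. The Pak1-/- arrays were lower, but the difference of −0.14 (SE 0.09, 95% interval −0.38 to 0.088) did not pass (adjusted p = 0.23). Without Pak1-/- replicate 1 it was −0.23 and without Pak1-/- replicate 2 it was −0.058, and neither passed (adjusted p = 0.099 and 0.57, in a range of 0.099 to 0.66 over all alternatives).

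Of the target genes, Nrarp and Hey1 were lower in the Pak1-/- arrays and Hes1 did not pass. Nrarp, an ankyrin repeat protein induced by Notch that limits Notch signalling, was read by A_51_P504354 (chromosome 2, 25038038 to 25038097). It stood at 7.95 and 8.23 in the Pak1-/- arrays and 9.33 and 9.31 in the Pak1+/+ arrays. The groups lay a log2 unit apart, and the difference of −1.23 (SE 0.11, 95% interval −1.54 to −0.93, adjusted p = 0.0015) was the largest of the 10 genes by their brightest probes, 2.35-fold. It passed under every alternative, with values of −1.47 to −1.09.

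Hey1, a repressor of the Hes and Hey family, was read by A_51_P258409 (chromosome 3, 8663432 to 8663491). It stood at 14.37 and 14.77 against 15.15 and 15.28. All Pak1-/- values were below the others, a difference of −0.64 (SE 0.15, adjusted p = 0.023). Without Pak1+/+ replicate 2 it did not pass (adjusted p = 0.080, in a range of 0.011 to 0.080 over all alternatives). Hes1, the most widely used Notch target and one that other pathways also induce, was read by A_55_P2046245 (chromosome 16, 30067820 to 30067879) at 10.23 and 10.21 against 10.16 and 10.22. The groups overlapped. Its difference of 0.030 had a 95% interval of −0.15 to 0.21 (adjusted p = 0.74), so that a change as large as that of Hey1 or Nrarp lies outside that interval.

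**Figure D2:**
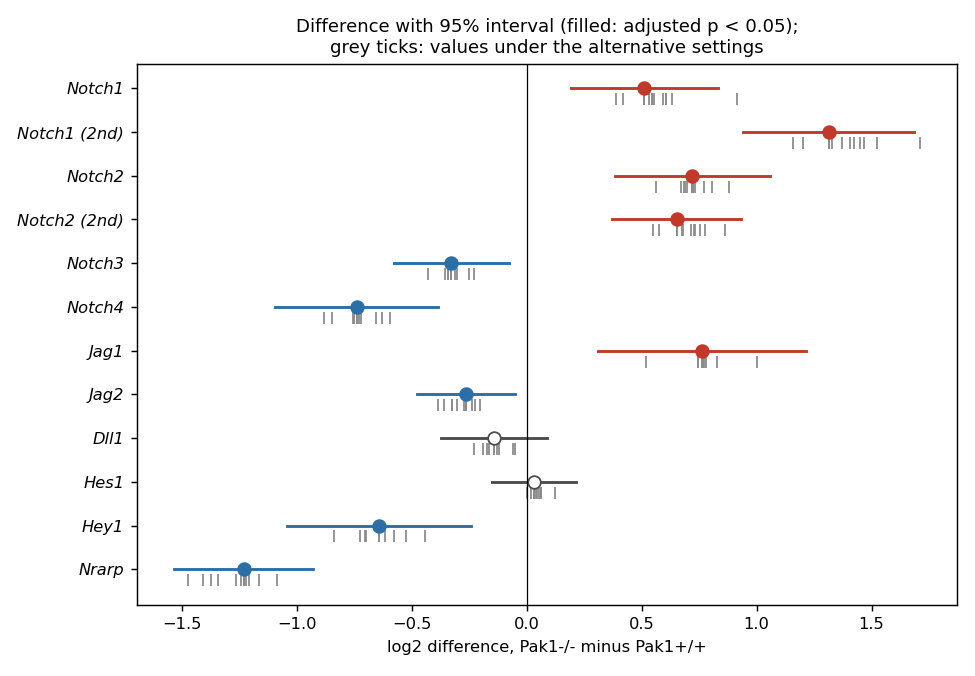
Log2 difference, Pak1-/- minus Pak1+/+, of each probe with its 95% interval from limma (filled points passed the adjusted threshold of 0.05) and, as grey ticks, its value under each alternative setting. Notch1, Notch2 and Jag1 lie to the right of 0 and Notch3, Notch4, Jag2, Hey1 and Nrarp to the left under every setting, and Hes1 lies at 0.

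**Figure D3:**
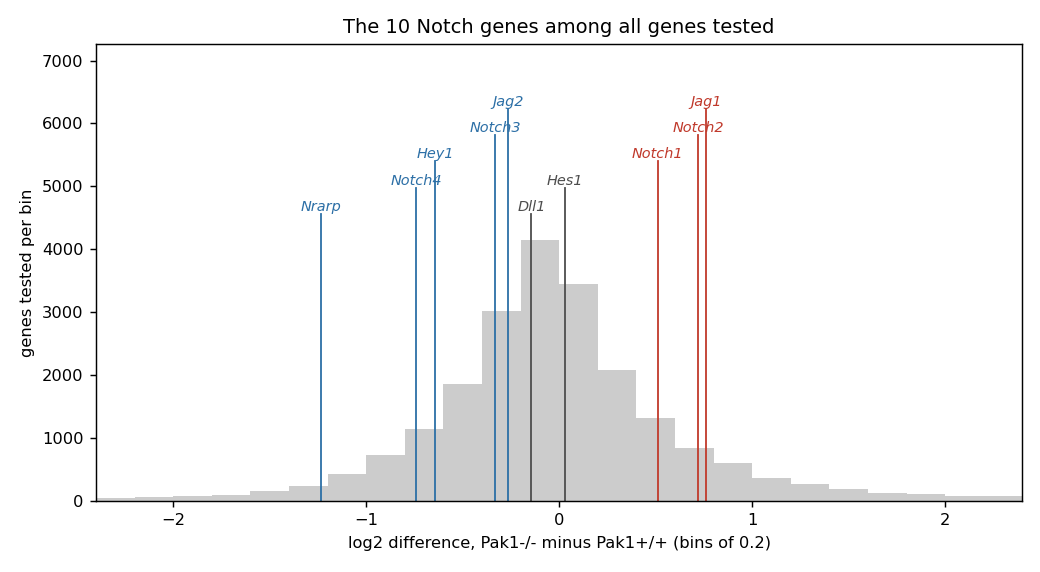
Number of genes tested per bin of 0.2 log2 difference, Pak1-/- minus Pak1+/+ (grey; the axis leaves out larger differences), with the 10 Notch genes as lines, red for higher, blue for lower and grey for not past the threshold. Nrarp at −1.23 lies farthest out, and Dll1 and Hes1 lie at the centre.

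The list of other pathway genes held 58, of which 57 had a probe and 52 were tested; it was written with results of these data known. In the Pak1-/- arrays 22 were higher and 11 lower, and 19 did not pass. The background is the same 22.8% higher and 28.2% lower of all genes. At an adjusted p under 0.01, 16 of the listed genes were higher and 6 lower. The median difference of the list was 0.19, beside −0.055 for all genes, and ran from 0.091 to 0.28 over the alternatives. Changes of at least 2-fold were seen in 7 of its genes, against 12.6% of all genes. Of the 19 genes with more than 1 tested probe, 13 had probes with the same call, 6 had some past the threshold and others not, and none had probes past it in opposite directions.

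On the ligand side, 1 of 3 tested genes was lower and none higher. Dll3, a ligand that acts inside the cell on Notch, read 8.26 and 8.16 in the Pak1-/- arrays and 9.04 and 8.90 in the Pak1+/+ arrays (−0.76, SE 0.09, adjusted p = 0.0025), and its second probe was lower too (−1.34). Dll4, an endothelial ligand, read 7.06 and 7.41 against 7.46 and 7.62 (−0.31, adjusted p = 0.14). Leaving out Pak1-/- replicate 2 brought it past the threshold and leaving out Pak1-/- replicate 1 shrank it (−0.48, adjusted p = 0.043, and −0.13, adjusted p = 0.39, in a range of 0.043 to 0.39 over all alternatives). Of the ubiquitin ligases that drive ligand endocytosis, Mib2 was higher (1.12, SE 0.09, adjusted p = 0.0010) and Mib1 lower (−0.47, SE 0.07, adjusted p = 0.0060). Neurl1a (0.56) was higher and Neurl1b (−0.31) lower.

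Among the enzymes that glycosylate the receptors, 2 of 5 were higher and none lower. Lfng, the fringe that alters how Notch responds to Jagged and Delta ligands, read 12.11 and 12.01 in the Pak1-/- arrays and 10.47 and 10.50 in the Pak1+/+ arrays. The groups lay far apart, with a difference of 1.57 (SE 0.07, adjusted p = 0.00028), 2.97-fold, that held under every alternative. The other fringes, Mfng (−0.012) and Rfng (0.21), did not pass and their groups overlapped. Rfng was 0.023 without Pak1+/+ replicate 1 and 0.40 without Pak1+/+ replicate 2, and passed in neither case. Poglut1 was higher (0.66, adjusted p = 0.0021). Pofut1 did not pass by its brightest probe (0.23, adjusted p = 0.075), while its dimmer probe was lower (−0.91, adjusted p = 0.00095).

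The ADAM proteases Adam10 (0.080) and Adam17 (−0.11) and the γ-secretase subunit Psen2 (0.016) did not pass, with adjusted p of 0.36 to 0.87. Other γ-secretase subunits did differ. Aph1b (0.89, SE 0.07, adjusted p = 0.0011), Ncstn (0.69) and Aph1a (0.40) were higher. The dimmer Aph1a probe did not pass (0.46, limma adjusted p = 0.060). Psenen was lower by both of its probes (−0.36 for the brighter, SE 0.07, adjusted p = 0.012). The brighter did not pass without Pak1+/+ replicate 1 or 2 (adjusted p = 0.057 and 0.073, in a range of 0.0081 to 0.073 over all alternatives). Furin, which cleaves the receptor precursor, was higher (0.45). In all, 4 of the 8 genes of this group tested were higher and 1 lower.

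Of the receptor turnover genes, 5 of 9 were higher and 1 lower. Dtx3l, a ligase of the Deltex family that is also an interferon-induced gene, read 14.81 and 14.62 in the Pak1-/- arrays and 11.72 and 11.92 in the Pak1+/+ arrays (2.90, SE 0.11, adjusted p = 1.85e-04). This was the largest difference of the list, and a second probe gave 2.65. Numbl read 10.46 and 10.42 against 8.25 and 8.27 (2.18, SE 0.07, adjusted p = 0.00012). Its relative Numb, an inhibitor that sends Notch to degradation, was lower (−0.34, SE 0.07, adjusted p = 0.012). Numb lost its call without Pak1+/+ replicate 1 or 2 (adjusted p = 0.071 and 0.068, in a range of 0.0091 to 0.071 over all alternatives). The ligases Itch (0.59), Dtx1 (0.50) and Fbxw7 (0.49) were higher.

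In the nucleus, the DNA-binding protein Rbpj read 11.82 and 11.70 against 12.13 and 12.22 (−0.42, SE 0.08, adjusted p = 0.013). Its dimmer probe did not pass (−0.12), and the call of the brighter was lost without Pak1-/- replicate 2 (adjusted p = 0.0501) or Pak1+/+ replicate 2 (0.071; range 0.0093 to 0.071 over all alternatives). Of its coactivators, Maml1 (0.78) and Maml3 (0.31) were higher, Snw1 (−0.57, SE 0.07, adjusted p = 0.0031) and Kat2a (−0.30) lower, and Maml2 (−0.12), Ep300 (0.022) and Kat2b (0.18) did not pass. Corepressors that hold RBPJ targets silent were higher in 6 of 10 cases and lower in none by their brightest probes. Hdac1, a histone deacetylase, read 15.00 and 14.98 against 13.91 and 13.95, a difference of 1.06 (SE 0.07, adjusted p = 6.0e-04). Tle2 (0.93) and Tle3 (0.81) were higher too, and Tle4 did not pass by its brightest probe (−0.16), while its dimmer probe was lower (−0.59, adjusted p = 0.014). Hes6, which opposes Hes1 protein, was higher (0.85).

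Of the 4 further target genes tested, 3 were lower and none higher. Ccnd1 (cyclin D1) read 15.83 and 15.97 in the Pak1-/- arrays and 17.31 and 17.18 in the Pak1+/+ arrays (−1.34, SE 0.09, adjusted p = 0.00069). Myc read 12.95 and 12.79 against 14.11 and 14.02 (−1.20, SE 0.09, adjusted p = 0.00089). Both are growth genes with many inputs besides Notch. Hes7, an oscillating repressor of the embryo's somites, was lower as well (−0.40, SE 0.07, adjusted p = 0.0099); it did not pass without Pak1+/+ replicate 2 (adjusted p = 0.062, in a range of 0.0069 to 0.062 over all alternatives). Hes5 was near background (6.66 to 6.88, well above it on 2 arrays) and did not pass, and Hey2 and Heyl were too dim to test.

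**Figure D4:**
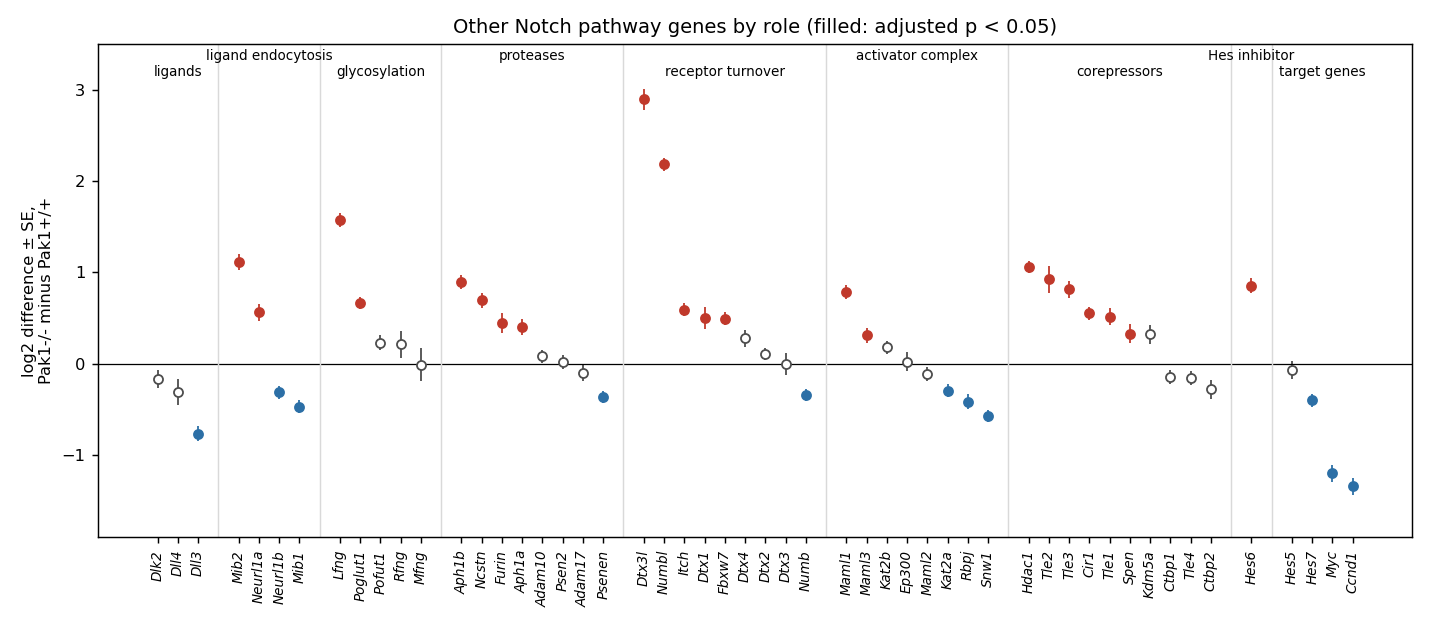
Log2 difference ± SE, Pak1-/- minus Pak1+/+, of the 52 other Notch pathway genes tested, grouped by role and ordered by size within each (red, higher; blue, lower; open, not past the adjusted threshold of 0.05). Corepressors lie mostly above 0, with 6 of 10 higher, and the target genes at or below it, with 3 of 4 lower; Dtx3l at 2.90 is the highest.

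The 250 bases before the transcription start are shown for 4 genes named above: Nrarp, the member with the largest difference, and Lfng, Hes7 and Hes5, which carry the RBPJ motif GTGGGAA there. Sequences are those of RefSeq (GRCm38.p6), 5′ to 3′ in the direction of transcription, with each GTGGGAA or its reverse complement TTCCCAC in capitals.
Nrarp, chr2:25180508-25180757, + strand: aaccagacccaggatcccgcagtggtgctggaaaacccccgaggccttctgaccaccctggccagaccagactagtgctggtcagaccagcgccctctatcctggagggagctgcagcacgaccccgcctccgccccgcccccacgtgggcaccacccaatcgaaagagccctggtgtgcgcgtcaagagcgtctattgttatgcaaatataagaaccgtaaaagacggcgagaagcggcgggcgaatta
Lfng, chr5:140607091-140607340, + strand: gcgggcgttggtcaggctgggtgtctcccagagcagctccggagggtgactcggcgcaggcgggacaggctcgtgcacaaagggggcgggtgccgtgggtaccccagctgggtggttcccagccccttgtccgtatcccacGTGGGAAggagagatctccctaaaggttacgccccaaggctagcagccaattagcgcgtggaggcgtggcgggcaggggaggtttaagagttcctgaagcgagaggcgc
Hes7, chr11:69120203-69120452, + strand: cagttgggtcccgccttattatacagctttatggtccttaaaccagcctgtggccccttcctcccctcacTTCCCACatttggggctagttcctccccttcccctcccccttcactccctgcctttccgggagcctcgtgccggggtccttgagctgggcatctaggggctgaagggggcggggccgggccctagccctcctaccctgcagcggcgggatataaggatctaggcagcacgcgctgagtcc
Hes5, chr4:154960673-154960922, + strand: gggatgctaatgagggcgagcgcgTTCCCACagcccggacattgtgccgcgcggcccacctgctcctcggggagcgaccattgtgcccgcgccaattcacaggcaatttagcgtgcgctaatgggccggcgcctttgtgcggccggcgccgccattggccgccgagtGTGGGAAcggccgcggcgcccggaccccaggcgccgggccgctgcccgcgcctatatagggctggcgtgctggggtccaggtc

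The search covered both strands of each window. The match in Lfng began 109 bases before the start, that in Hes7 180 bases before it, and those in Hes5 226 and 83 bases before it. No match was found in the window of Nrarp or of the other members with a promoter in the table (0 of 8), which says only that these letters are not there. Hes1 and Hey1 were not searched. Of the 47 other pathway genes with a promoter in the table, 6 held the motif (Psen2, Spen and Hey2 being the others), against 6.18% of all genes and 5.42% of all promoters. Of the 6 genes that held the motif, Lfng and Spen (0.33) were higher, Hes7 was lower, Hes5 and Psen2 did not pass and Hey2 was too dim to test.

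Markers of mammary cell types were set beside these values. Marker counts here and above stand beside all genes tested, of which 22.8% were higher and 28.2% lower. All 8 luminal markers were above background on at least 2 arrays, and 5 were higher and 0 lower in the Pak1-/- arrays; their summed intensity was 1009730 and 1002860 against 782601 and 780591. Of 7 basal markers, 5 were higher and 0 lower, and Myh11 was dim on all 4. Their sum was 94790 and 86838 in the Pak1-/- arrays against 19507 and 18978, with Krt17 (4.92) and Krt14 (2.83) leading. Both sums were higher in the Pak1-/- arrays, as were the leukocyte and fibroblast sums given below. Notch1, Notch2 and Jag1 were higher too, while Notch3, Notch4, Jag2, Hey1 and Nrarp were lower. The luminal and basal sums stayed higher without the brightest marker of each (Krt18 and Krt14). Without Krt8 as well, the luminal groups overlapped (104216 and 111819 against 104480 and 102875), and Krt19 (−0.64), Elf5 (−0.35) and Epcam (−0.23) did not pass. Without Krt17 as well, the basal sums were 15125 and 13351 against 10547 and 9674. Of 7 leukocyte markers, Ptprc was lower (−0.45) and none was higher, Lyz2 was dim on all arrays, and the sum was 74807 and 52141 against 47806 and 43314. Itgam alone made up 87.0% to 92.1% of it, and without Itgam the groups overlapped (5888 and 5589 against 4741 and 5632). The sum used the brightest Itgam probe, which averaged 15.54 over the arrays. The dimmer Itgam probes averaged 7.66 and 7.65, and neither passed (−0.20 and 0.56). Of 8 fibroblast markers, Col3a1, Pdgfrb, Dcn and Lum were dim on all arrays and Col1a1 was higher (1.12), with a sum of 1564 and 1375 against 1251 and 1213. Without Col1a1 it was 928 and 903 against 989 and 969. The part of these cell types in the differences of the Notch genes was not tested. The Erbb2 probe, placed on mouse chromosome 11, read lower in the Pak1-/- arrays (−0.31, SE 0.07, limma adjusted p = 0.020). Whether this probe reads the Neu transgene was not tested. The Erbb2 call was lost without Pak1-/- replicate 1 or Pak1+/+ replicate 1 or 2. Its difference ran from −0.33 to −0.28 with 1 sample left out.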

How the data were processed

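Per the labels and file headers, single-colour (Cy3) Agilent arrays were read with Feature Extraction 9.5.3.1, and the authors deposited linear spot intensities per array. They also deposited a table of log2 values, which their methods describe as normexp corrected and quantile normalized; values filled 24008 of its 39485 rows, and the table served as an alternative. Here the spot and local background intensities of the 4 scanner files were corrected with normexp (limma 3.58.1, R 4.3.3; offset 50, set here), control spots were removed, and values were quantile normalized on the log2 scale and averaged per probe. Probes well above background on at least 2 arrays were kept (27229, 69.1%) and compared with lmFit and eBayes, with genotype as the only term, adjusted over all probes kept. The fit had 2 residual and 2.62 prior degrees of freedom. An exact permutation test of 2 against 2 cannot give a p below 0.333. The offset understates changes of dim probes. The number of arrays limits the precision, and the p-values measure only the spread between these samples. Probe positions are those of the files (mm9). Names came through RefSeq accessions (26055 of 32334 matched), otherwise from the files.

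The members and lists were chosen with earlier results of these data known. Named genes were all members, Pak1, Erbb2, 13 fixed pathway genes and up to 6 more in each direction with the largest change; further genes given by role were named after their values were seen. Some pathway genes are not reported here and are in none of the list's counts. The code was tested on simulated arrays. Alternatives changed the offset, scaling, input table, filter, probe choice, outlier spots, threshold and samples, or added a replicate block.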

Additional observations from a re-analysis of the deposited data

How the results depend on the processing

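At an adjusted p under 0.01, 8878 probes passed, with 1 of the 10 members higher and 1 lower and 6 other pathway genes lower. The count of lower members was 3 with cyclic loess, with no filter on dim probes and with the replicate block, since Notch3 and Jag2 then missed the threshold. In fits that left out 1 sample, which assume that a lone sample varies as the other group does, 10307 to 12164 probes passed, 1 to 2 members were higher and 2 to 4 lower, and 5 to 10 other pathway genes were lower; the fewest in each of these 3 gene counts came without Pak1+/+ replicate 2. The median of the other pathway genes was 0.28 with cyclic loess, 0.10 with no filter and 0.091 when the probes of each gene were averaged. The cause of these shifts was not tested.

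Single values were followed for the members, Pak1, Erbb2, the fixed and largest-change pathway genes, and the second Notch1 and Notch2 probes. The further genes given by role, Neurl1b and Kat2a among them, were not followed singly. Among those followed, only values past no threshold changed sign. Mfng became 8.3e-04 with 75th percentile scaling of the normexp values, 0.041 with cyclic loess and 0.072 when its probes were averaged, and ran from −0.23 to 0.20 with 1 sample left out. Adam10 became −0.015 with Agilent's processed signal at 75th percentile scaling and Hes5 0.011 in the authors' table. With 1 sample left out, Hes1 ran from −5.0e-04 to 0.061, Psen2 from −0.030 to 0.062, Adam10 from 0.025 to 0.13, Adam17 from −0.18 to −0.032 and Hes5 from −0.16 to 0.029. Pak1 passed with cyclic loess alone (0.27). Over these genes and probes, 534 values had the same sign and call, 41 lost the call, 2 gained it and 11 changed sign.

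Nothing in the labels ties equal replicate numbers together, and the difference between replicates in 1 group had r = −0.028 with that in the other (across probes, which are not independent). With the replicate block, 3 members were higher and 3 lower. Signal over background limited Hes5, Hey2 and Heyl, and the offset shrinks the difference of such dim probes.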
